A study of Mus musculus with 6 samples.

Results

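The transcripts of 9 Sox transcription factor genes (Sox1, Sox2, Sox4, Sox5, Sox8, Sox9, Sox10, Sox11 and Sox17) and Sox2ot, the long non-coding RNA whose gene overlaps Sox2, were examined in mouse cerebral cortex with and without Cux2. They are 10 of the 27670 gene names on the array, and the deposited files hold 27 probes for them out of 41174. A probe was assigned to a gene by its accession, its symbol or an older name, and the 3 Sox2ot probes carry the older name B230215L15Rik. The set was chosen by family and locus after the knock-out minus control differences of these arrays were known, in which a Sox2ot probe had passed the threshold, so it was selected on that contrast. Every difference between knock-out and control given here for these 10 genes is therefore a description, and none is offered as a test.

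The samples were 6 cortices of male mice, 1 array each. The 3 controls (samples 15, 62 and 16) have wild type in their titles but Cux2+/- as genotype, and the labels do not settle which holds. The 3 knock-outs (samples 53, 48 and 54) carry the genotype label Cux2-/-. Age, strain background and the structure of the mutant allele are not stated in the labels. Nor do they state that every cortex came from its own mouse, so the spread behind each p-value may be partly technical. Values are log2 signal relative to the 75th percentile of the same array, so that 0 is the level of that percentile and a difference of 1 is a 2-fold change. No level is compared between probes, because probes differ in how brightly they bind.

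Sox proteins bind DNA through a shared HMG box and fall into subgroups with different places in the brain. Sox1 and Sox2 keep neural stem cells and progenitors undifferentiated, Sox4 and Sox11 act in newly formed neurons, and Sox5 helps to set the identity of deep-layer cortical neurons. Sox9 acts in astrocytes and progenitors, Sox8 and Sox10 in the oligodendrocyte lineage, and Sox17 in blood vessel endothelium. Sox2ot spans the whole Sox2 gene, is known to be spliced in many forms from several start sites, and is expressed in the brain. In tissue RNA, fewer cells of a type and less RNA per cell cannot be told apart.

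The promoters of Sox2, the gene that lies inside Sox2ot, and of Sox11, whose tested probes all lay lower in the knock-outs, are shown first. Each is the stretch of 250 bases before the start site from RefSeq, build GRCm38.p6, 5′ to 3′ on the strand of the gene. Sox2 is on the plus strand at chr3:34649745-34649994 and Sox11 on the minus strand at chr12:27342719-27342968. Capitals mark a Sox-type word (ACAATG or ACAAAG, or their reverse complements CATTGT and CTTTGT) or the Cux-type word ATCGAT, which reads the same on both strands.
Sox2: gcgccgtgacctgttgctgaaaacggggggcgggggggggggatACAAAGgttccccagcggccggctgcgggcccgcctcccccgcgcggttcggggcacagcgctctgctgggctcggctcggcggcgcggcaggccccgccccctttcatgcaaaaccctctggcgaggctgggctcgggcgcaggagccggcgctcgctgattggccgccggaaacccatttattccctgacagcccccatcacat
Sox11: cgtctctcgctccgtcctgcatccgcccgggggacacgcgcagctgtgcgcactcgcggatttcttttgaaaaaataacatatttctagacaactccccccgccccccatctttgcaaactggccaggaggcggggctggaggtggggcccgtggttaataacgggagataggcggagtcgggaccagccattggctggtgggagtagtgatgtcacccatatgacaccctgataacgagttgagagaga
A promoter was listed for 6 of the 10 genes, and Sox2ot was not among them. In windows of 300 bases (250 before and 50 after the start), a Sox-type word stood once in Sox2 and once in Sox5 and in none of Sox1, Sox4, Sox8 and Sox11, while 28.6% of all 32851 promoter windows hold one. The word ATCGAT was in none of the 6 windows and in 0.925% of all. A match is a string of letters and shows no binding.

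Sox2ot held the largest differences among these genes, and its probes went in opposite directions. Its most intense probe, A_52_P48853, drawn from the cDNA AK031919, read 2.11 on array 15, 1.47 on 62 and 1.87 on 16 among the controls. The knock-outs read -0.55 on array 53, -0.13 on 48 and -0.26 on 54, the order kept below. The groups did not overlap, and control 62 was the lowest control. The knock-out mean was lower by 4.38-fold (difference -2.13, SE 0.19, 95% interval -2.58 to -1.68, n = 3 each).

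A second probe from the same cDNA, A_52_P568001, differed the same way. It stood at -2.88, -3.35 and -2.62 in the controls and at -4.95, -4.57 and -4.42 in the knock-outs. The groups again did not overlap and control 62 was again the lowest control. The difference was -1.69 (SE 0.22, 95% interval -2.21 to -1.18), and it shrank to -0.24 with normexp background correction. The lowest value of any probe well above background was -5.367 on knock-out 53, -4.854 on 48 and -6.189 on 54. On arrays 53 and 48 this probe was therefore near the floor.

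The third probe, A_52_P389324, comes from another cDNA, AK045614, to which the array gives the same older name. It stood at -1.29, 0.73 and -1.27 in the controls and at 1.23, 1.37 and 1.60 in the knock-outs. Here the knock-outs were all above the controls, and control 62 was by far the highest control. The difference was 2.01 (SE 0.53, 95% interval 0.73 to 3.28), and without control 62 it was 2.68. All 3 probes were well above background on all 6 arrays, and each kept its direction within both slides on which the arrays lay (-2.31 and -2.22, -1.61 and -1.96, and 2.78 and 1.5 for the probes in the order given). Slide 1 held control 15 with knock-outs 48 and 54, and slide 2 held controls 62 and 16 with knock-out 53. Every within-slide difference given here thus rests on a single array of 1 group. The positions of the probes along Sox2ot were not analysed here, and whether all 3 report the same gene was not tested.

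**Figure D1:**
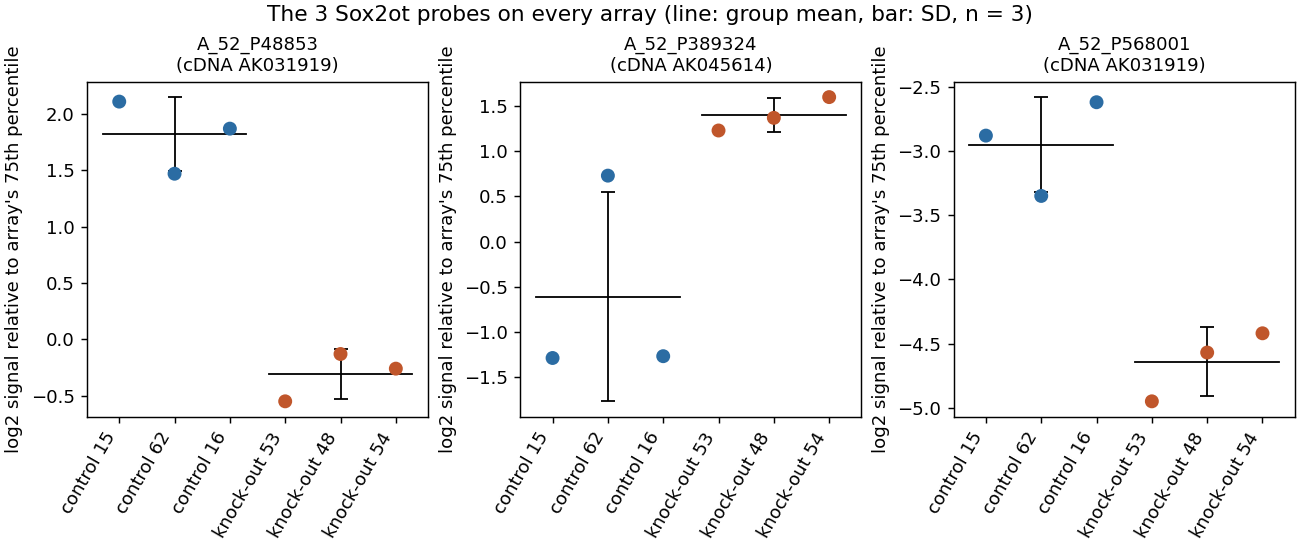
Log2 signal of the 3 Sox2ot probes (y axes, relative to the 75th percentile of each array, a separate scale per panel) on the 3 control arrays (blue) and 3 knock-out arrays (orange), with group means as lines and SD as bars (n = 3). The probes of cDNA AK031919 are lower in every knock-out, the probe of cDNA AK045614 is higher, and control 62 is the control nearest the knock-outs in all 3 panels.

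Opposite differences between probes of 1 gene were counted over the array as a description, since Sox2ot was selected on this contrast. Of 5976 genes with several tested probes, 3 (0.0502%) had 1 probe lower by at least 1 and another higher by at least 1 on the log2 scale, and these were Sox2ot, Enpp1 and LOC433022. With the limit at 0.5 there were 12 such genes (0.201%), and 64 (1.07%) had probes whose groups did not overlap in both directions.

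Across the 27 probes, 19 entered the fit because every array of the controls, of the knock-outs or of both read them well above background, and each of the 10 genes had such a probe. Of the other 8 (3 of Sox5, 2 of Sox17 and 1 each of Sox9, Sox10 and Sox11), 5 were not well above background on any array and 3 were so on some arrays only. Of the 19 tested probes, 1 passed the threshold (limma, adjusted p under 0.05), the most intense Sox2ot probe, where 0.129% of all 25508 tested probes passed (20 lower, 0.0784%, and 13 higher, 0.051%). With scaling to the array median, 36 of 49 such probes were lower. The groups did not overlap for 9 of the 19 probes, 7 lower and 2 higher, against 13.1% of all tested probes (6.77% lower and 6.29% higher). Because the genes were chosen with this contrast known, nothing is read from either count. The call for Sox2ot was lost without control 15, control 16 or knock-out 54, with normexp background correction, and with filters that admit dimmer probes. The difference stayed between -2.31 and -1.93 over 17 alternative fits, although a change of filter or variance model cannot alter it.

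**Figure D2:**
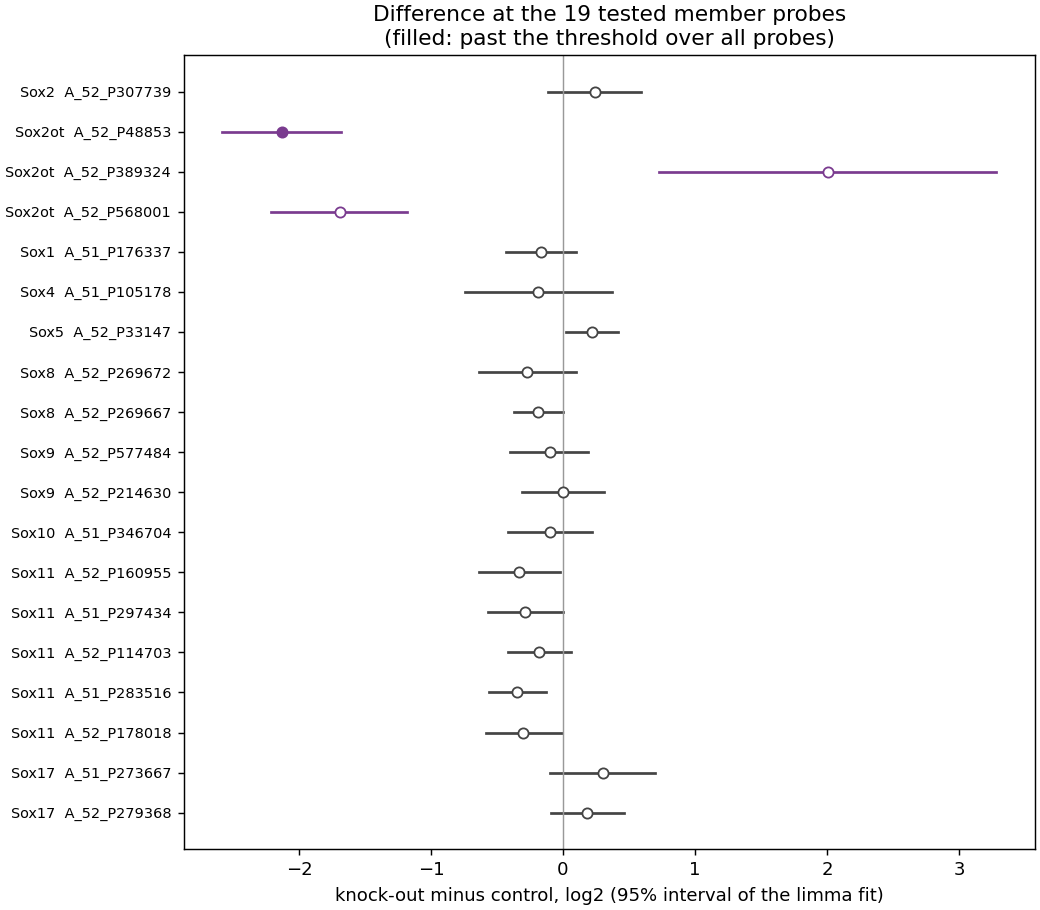
Difference between knock-out and control (x axis, log2) with its 95% interval for the 19 tested probes of the 10 genes, a filled point where the probe passed the threshold over all probes. The 3 Sox2ot probes (purple) lie at -2.13, 2.01 and -1.69, and the 16 probes of the Sox genes lie between -0.35 and 0.30.

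The Sox factor genes differed far less than Sox2ot. Of their 16 tested probes 11 were lower, 4 were higher and 1 stood at 0.00, with a median of -0.17 against -0.002 for all tested probes. Sox11 alone supplied 5 of the lower probes, and probes of 1 gene are not separate members. By the most intense probe, 6 of the 9 genes were lower and 3 higher. None differed by 0.5 or more. In limma 0 of the 16 passed, and 5 had an unadjusted p under 0.05, where 7.98% of all tested probes had one. Most of those 5 were Sox11 probes. The difference had the same sign within both slides for 10 of the 16 probes and opposite signs for 6.

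**Figure D3:**
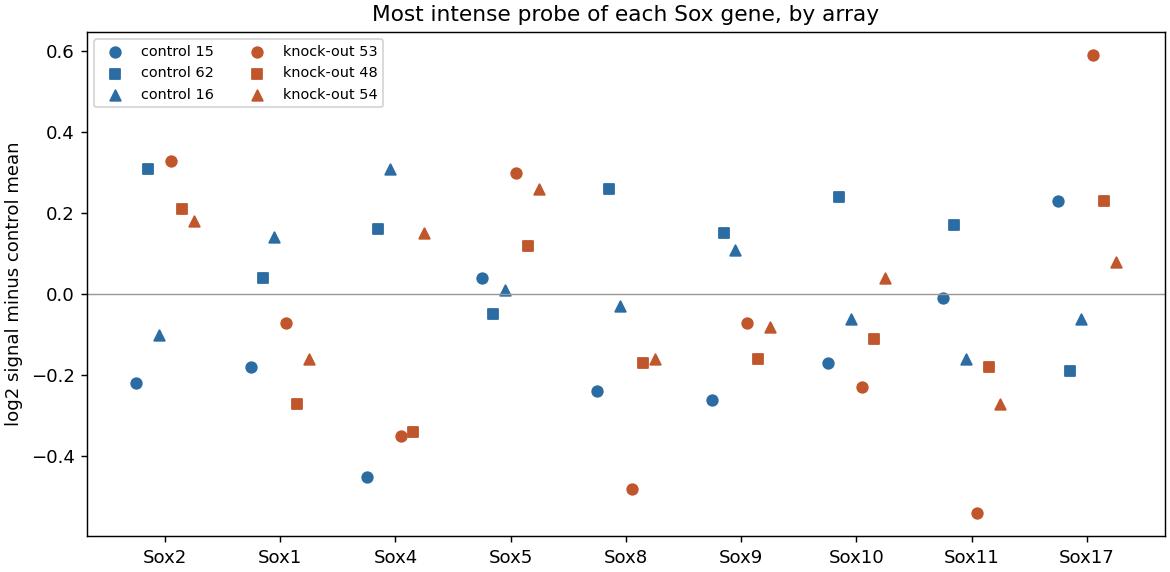
Log2 signal of the most intense probe of each Sox gene minus its control mean (y axis) on the 3 control arrays (blue) and 3 knock-out arrays (orange), a marker shape per array. The groups overlap for every gene except Sox5, whose knock-outs are all above the controls, and Sox11, whose knock-outs are all below.

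Sox2, the progenitor factor inside the Sox2ot gene, showed no shift of the size seen in the overlapping RNA. Its single probe stood at 0.32, 0.85 and 0.44 in the controls and at 0.87, 0.75 and 0.72 in the knock-outs. Control 62 lay among the knock-outs, so the groups overlapped. The difference was 0.24 (SE 0.15, 95% interval -0.11 to 0.59), an interval that holds none of the 3 Sox2ot differences. Without control 62 the difference was 0.40. Sox1, its close relative, stood at -4.57, -4.35 and -4.25 in the controls and at -4.46, -4.66 and -4.55 in the knock-outs, with overlapping groups. The Sox1 difference was -0.17 (95% interval -0.43 to 0.10) and turned to 0.01 without scaling between arrays and to 0.47 with normexp correction. The Sox1 probe was well above background on 3 control and 2 knock-out arrays, so it entered the fit through the controls.

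Among 11 tested genes of stem and progenitor cells, 6 were higher and 5 lower, with a median of 0.05 beside -0.01 for all 17124 tested genes, of which 8.3% had an unadjusted p under 0.05. None passed the threshold in limma, and 1 had an unadjusted p under 0.05. This was Id4, an inhibitor of basic helix-loop-helix factors, at -0.48 (SE 0.13, adjusted p = 0.40 in limma), with groups that did not overlap.

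Sox11, which acts in young neurons, had lower values at every tested probe. All 5 of its tested probes were lower in the knock-outs, by 0.18 to 0.35, and for 4 of them the groups did not overlap. Of all tested probes 6.77% were lower without overlap, and nothing is read from the count of 4. The most intense, A_52_P160955, stood at -0.59, -0.41 and -0.74 in the controls and at -1.12, -0.76 and -0.85 in the knock-outs. Its knock-out 48 lay only just below control 16. The difference was -0.33 (SE 0.13, 95% interval -0.64 to -0.02). Probe A_51_P283516 had the largest difference of the 5, -0.35 (SE 0.09, 95% interval -0.56 to -0.13), from controls at -2.04, -2.02 and -1.81 and knock-outs at -2.31, -2.26 and -2.34. With normexp correction 3 of the 5 probes turned to between 0.01 and 0.08, while the rest stayed lower. Without scaling between arrays, which moved the median of all probes by 0.17, the 5 differences lay between -0.17 and -0.00. The 5 probes target 1 gene on the same 6 arrays and are not replicates.

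Sox4, the partner of Sox11 in the same subgroup, stood at -1.22, -0.61 and -0.46 in the controls and at -1.12, -1.11 and -0.62 in the knock-outs. The groups overlapped, and control 15 was the lowest of all arrays. The difference was -0.19 (95% interval -0.74 to 0.37), with 0.36 within slide 1 and -0.58 within slide 2. Of 12 other genes of immature neurons 5 were higher and 7 lower (median -0.03), none passed in limma, and 1 had an unadjusted p under 0.05. That gene was Dpysl3, a growth-cone protein, at -0.22 (adjusted p = 0.578 in limma). Markers of olfactory bulb and ventricular zone, where newborn neurons persist, averaged 1.26 above their mean on knock-out 54 and between -0.56 and -0.01 on the other arrays. Th, the dopamine-synthesis enzyme, stood at -0.41 on knock-out 54 and from -4.60 to -3.44 elsewhere, and Doc2g and Sp8 were also highest there. Foxj1, a factor of ciliated ventricular cells, had its lowest value on that array, at -1.68 against -1.14 to -0.96. Their part in the values of Sox4 and Sox11 was not tested.

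Sox5 was the Sox gene that lay higher with no overlap of the groups. Its 1 tested probe, which the array names A730017D01Rik, stood at -1.96, -2.05 and -1.99 in the controls and at -1.70, -1.88 and -1.74 in the knock-outs. The controls were close together, with an SD of 0.04. The difference was 0.22 (SE 0.08, 95% interval 0.02 to 0.42) and was positive in all 17 alternative fits. Those that changed only the filter or the variance model could not alter it. The other 3 Sox5 probes were well above background on 0 of the 6 arrays. Of 11 deep-layer neuron genes 10 had values below their controls (median -0.17), where 52.5% of all genes did. None passed in limma and 3 had an unadjusted p under 0.05, among them Nr4a2, a nuclear receptor of deep cortical layers, at -0.31 (adjusted p = 0.499) and Fezf2, a factor of subcerebral projection neurons, at -0.52 (adjusted p = 0.499). Without scaling between arrays, which moved the median of all probes by 0.17, the deep-layer median was 0.00. The difference between Sox5 and these genes was not tested.

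The glial factors Sox8, Sox9 and Sox10 had differences from -0.27 to 0.00. Sox10 stood at 1.02, 1.43 and 1.13 in the controls and at 0.96, 1.08 and 1.23 in the knock-outs. Its groups overlapped, and the difference of -0.10 (SE 0.13, 95% interval -0.42 to 0.22) turned to 0.02 without control 62 and to 0.08 without scaling between arrays. For Sox8 the more intense probe stood at -0.27 (95% interval -0.64 to 0.10) and the other, with controls from -1.0 to -0.85 and knock-outs from -1.16 to -1.08, at -0.19 (95% interval -0.37 to 0.00). The groups did not overlap at this second Sox8 probe and overlapped at the first. Of 15 oligodendrocyte lineage genes 6 were higher and 9 lower (median -0.04), none passed in limma and 1 had an unadjusted p under 0.05. It was Gpr17, a receptor of immature oligodendrocytes, at -0.50 (adjusted p = 0.52 in limma). On average this list stood between -0.10 and 0.23 on the control arrays and between -0.13 and 0.04 on the knock-out arrays.

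One probe of Sox9, A_52_P214630, was printed 10 times on each array, which shows the spread between spots but not that of labelling or hybridisation. Its mean was 0.28, 0.71 and 0.61 on the control arrays and 0.44, 0.52 and 0.65 on the knock-out arrays. The SD between the 10 spots was 0.060 to 0.088 within an array, while the SD was 0.23 between the 3 controls and 0.11 between the 3 knock-outs. The difference of 0.00 (95% interval -0.31 to 0.31) and the -0.10 of the more intense Sox9 probe (95% interval -0.40 to 0.19, 0.07 without scaling between arrays) were both smaller than the spread of the controls.

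**Figure D4:**
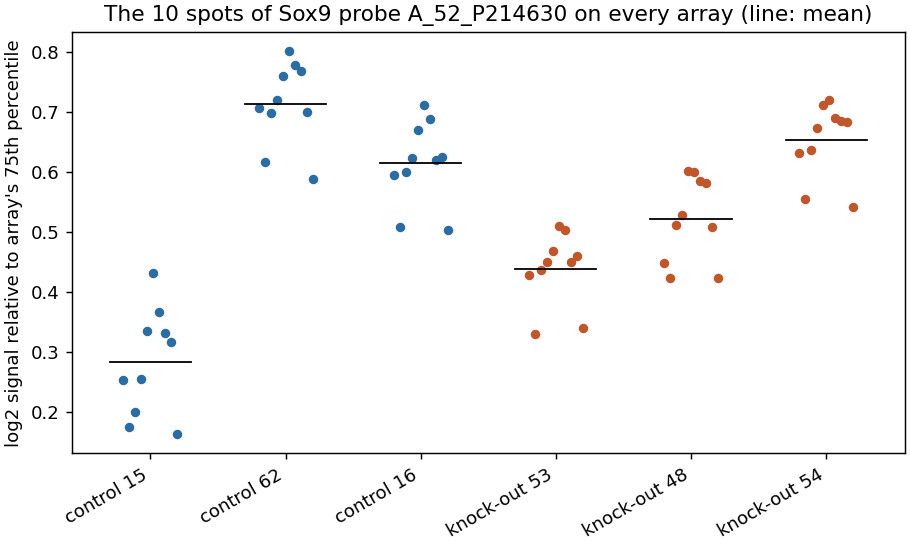
Log2 signal of the 10 spots of Sox9 probe A_52_P214630 on every array (y axis, relative to the 75th percentile of the array), controls in blue and knock-outs in orange, with the mean of the 10 spots as a line. The means run from 0.28 on control 15 to 0.71 on control 62, with the 3 knock-outs between them.

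Astrocyte genes were lower in 12 of 14 (median -0.14), none passed in limma and 2 had an unadjusted p under 0.05. These were Gfap, an intermediate filament of reactive astrocytes, at -0.58 (adjusted p = 0.524) and S100b, a calcium-binding protein, at -0.30 (adjusted p = 0.517). The list averaged 0.02 to 0.12 on the control arrays and -0.17 to -0.02 on the knock-out arrays. Without scaling between arrays its median was 0.04, below the 0.17 by which all probes moved.

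Sox17, an endothelial factor, stood at -0.65, -1.07 and -0.94 in the controls and at -0.29, -0.65 and -0.80 in the knock-outs at its most intense probe. Control 15 overlapped the knock-outs. The difference was 0.30 (SE 0.17, 95% interval -0.10 to 0.70). It was -0.08 within slide 1, whose only control was 15, and 0.71 within slide 2, whose only knock-out was 53. A second probe gave 0.18 (95% interval -0.09 to 0.46), and 2 further probes were not well above background on any array. Of 14 endothelial genes 12 were higher (median 0.13), none passed in limma and 2 had an unadjusted p under 0.05. Cdh5, the cadherin of endothelial junctions, stood at 0.29 (adjusted p = 0.457) and Esam, an adhesion molecule of the same junctions, at -0.22 (adjusted p = 0.532). The list stood at -0.23, -0.03 and 0.07 on the control arrays and at 0.06, -0.04 and 0.17 on the knock-out arrays.

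Of 11 further Sox genes on the array 7 had a tested probe, 3 higher and 4 lower (median -0.09). None passed in limma, and 1, Sox21, a progenitor factor related to Sox2, had an unadjusted p under 0.05, at -0.34 (adjusted p = 0.611) with overlapping groups.

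The genes beside Sox2ot were examined because probes under its older name differed in opposite directions. In the gene order of RefSeq, the 9 nearest genes with a tested probe on each side of Sox2 held, with Sox2 itself, 33 probes in 19 genes. Of these 33 probes 7 differed by at least 1 on the log2 scale and 1, the most intense Sox2ot probe, passed the threshold. The share of all tested probes that differed so was 0.980%, and nothing is read from the count of 7, since the 3 Sox2ot probes prompted the choice. Without them 4 of 30 probes differed by at least 1, namely 1 probe of Dcun1d1, a cullin neddylation factor, 2 of Acad9, a mitochondrial acyl-CoA dehydrogenase, and 1 of Zfp267, a zinc-finger gene. One of these Acad9 probes, A_52_P73208, was well above background on 1 of the 3 controls and entered the fit through the knock-outs. Without it there were 3 probes beside those of Sox2ot. Besides Sox2ot itself, the genes before Sox2 had 0 such probes. Among them, Mrpl47 probe A_52_P595537 stood at -1.9, -0.79 and -2.08 in the controls and at -0.9, -0.82 and -0.79 in the knock-outs. Its groups overlapped through control 62, and its difference of 0.76 became 1.15 without that array. The other Mrpl47 probe differed by 0.00.

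The Dcun1d1 probe stood at 0.33, 1.79 and 0.11 in the controls and at 2.63, 2.67 and 2.59 in the knock-outs. It was the only 1 of 3 Dcun1d1 probes to differ so, since the other two stood at -0.23 and 0.33. The other Acad9 probe stood at -0.51, 0.96 and -0.48 in the controls and at 1.34, 1.28 and 1.75 in the knock-outs, and the Zfp267 probe at -2.95, -1.67 and -2.94 and at -1.01, -1.01 and -1.20. A second Zfp267 probe, A_52_P487281, was also higher in every knock-out, with a difference of 0.91 (95% interval 0.51 to 1.31).

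Control 62 lay between the other controls and the knock-outs at all 6 of these probes that were well above background on every array. Its place was expressed on the linear scale as a share of the way from the mean of the other controls to the knock-out mean. The share was 39%, 47% and 56% at the Sox2ot probes, 45% at Dcun1d1, 60% at Acad9 and 53% at the first Zfp267 probe. At the second Zfp267 probe, which differed by less than 1, it was 36%. These shares depend on the scale and would differ on log2 values. The place of control 62 was noticed after the values were seen. The genotypes of the mice along this chromosome stretch were not analysed here, so whether they differ between the mice, and their part in the differences at Sox2ot, Dcun1d1, Acad9 and Zfp267, was not tested. In knock-out arrays the same 6 probes were close together, with an SD of 0.04 to 0.27. A list of 13 neighbours of Sox2 drawn up with earlier results known had 11 tested genes by their most intense probe, 5 higher and 6 lower (median -0.01), with 0 past the threshold in limma and 3 at an unadjusted p under 0.05. All probes of Sox2, Atp11b and Mccc1, and the other two of Dcun1d1, differed by less than 0.5.

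**Figure D5:**
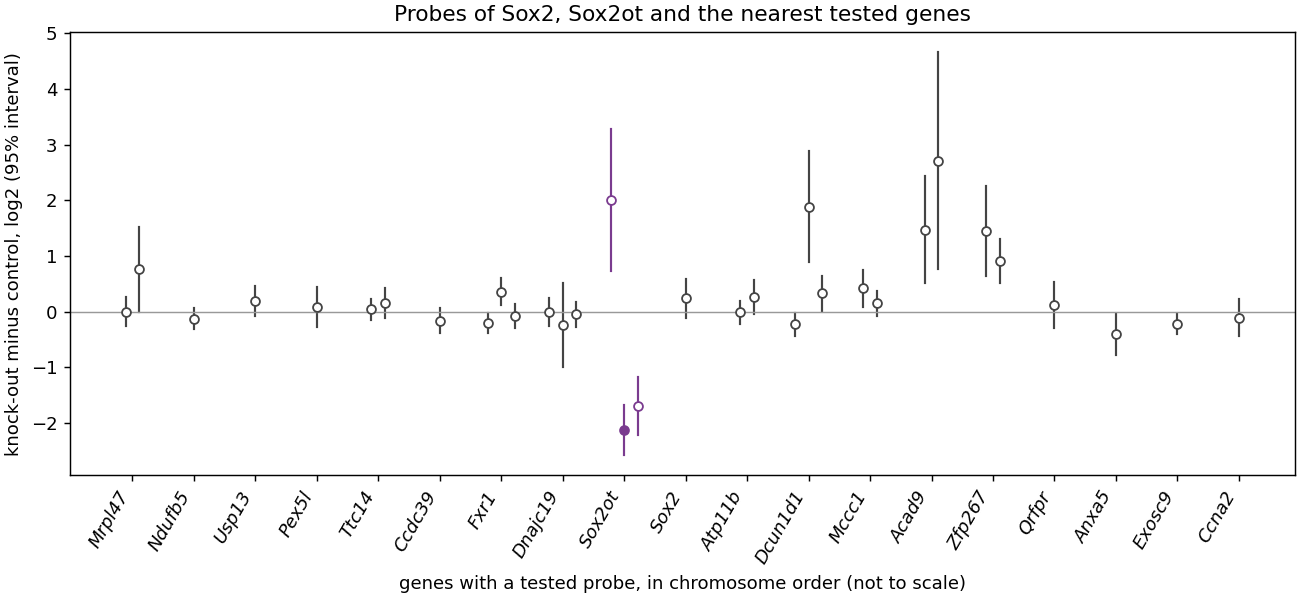
Difference between knock-out and control (y axis, log2) with its 95% interval for every tested probe of Sox2 and the 9 nearest tested genes on each side, in chromosome order and not to scale, Sox2ot in purple, a filled point where the probe passed the threshold. Probes of Sox2ot, Dcun1d1, Acad9 and Zfp267 differ by at least 1, and those of Sox2 and Atp11b lie between -0.01 and 0.26.

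Cux2 itself did not separate the groups. Its more intense probe stood at -0.06, 0.24 and 0.00 in the controls and at -0.07, -0.08 and -0.04 in the knock-outs (difference -0.12, adjusted p = 0.839 in limma). Its second probe differed by 0.08 (adjusted p = 0.949). Whether either probe lies in the altered stretch is not stated in the labels, so neither checks them. Per array, 58.6% to 72.8% of probes were well above background, precision is limited by the 6 arrays, and all 11 deep-layer neuron genes of the cortex on the array had a tested probe. Microglial genes were lower in 10 of 10 (median -0.47) and striatal genes in 8 of 8 (median -0.47). The striatal list averaged 0.50 and 0.47 on controls 15 and 62, but -0.23 on control 16, within the knock-out values of -0.37 to -0.15. None of either list passed in limma, where 8 and 1 had an unadjusted p under 0.05. Choroid plexus genes (4 of 6 higher) and meningeal genes (4 of 7 higher) had 0 past the threshold and 0 at an unadjusted p under 0.05 in limma. The part of these cell types in the Sox values was not tested.

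By Pearson correlation over the 6 arrays with 14044 other genes, which describes likeness only because the arrays share their groups, the most intense Sox2ot probe was closest to 5930438M14Rik (r = 0.997), Adat2 (r = 0.990) and Rsph6a (r = 0.989). Sox2 was closest to Fgf5, Ece1 and Sprr2b (r from 0.983 to 0.986), Sox9 to Sertad3, Fbxw2 and Sirt6 (r from 0.989 to 0.995), and Sox10 to Ifngr2, Prdx6-ps2 and Ppp4r3a (r from 0.988 to 0.994). These are the highest of 14044 values over only 6 arrays. Whether they exceed what chance would give was not tested, so they name no partners.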

How the data were processed

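Total RNA was turned into Cy3 cRNA for 1-colour Agilent arrays, per the labels. Per the file headers, Agilent Feature Extraction 9.1.3.1 produced an intensity for each spot that is background-subtracted and spatially detrended within the array. A deposited series table holds log2 values with 1 distribution in every column (median 6.75), and how it was made is not stated. Of 45018 spots 1639 controls were left out, with 120 outlier values, and spots of a probe were averaged into 41174 probes. Main values were log2 of the processed intensity minus the 75th percentile of the array. The 25508 probes that every array of 1 group or both read well above background were tested with limma 3.58.1 in R 4.3.3, Benjamini-Hochberg adjusted over all of them at 0.05, which lets a probe bright in 1 group enter. Names came from the RefSeq annotation of GRCm38.p6 (22951 probes by accession, 6659 by symbol, 3109 by older name, 8455 left as on the array), and no coordinates of probes were used. The procedure was tested on simulated data.

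Named genes are the 10 members with all their probes, up to 2 genes per list with the lowest p, and the 3 genes most correlated with Sox2ot, Sox2, Sox9 and Sox10, by the most intense probe. Probes and genes beside Sox2ot were added after their values were seen. Members and lists were chosen with earlier results of these data known. The 2 slides each hold both groups. Alternatives changed scaling, background correction (normexp, offset 50), filter, variance model, array weights, slide block, value source and arrays left out. Figures used matplotlib 3.10.9 in Python 3.11.15.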

Additional observations from a re-analysis of the deposited data

How the results depend on the processing

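The most intense Sox2ot probe kept its direction in all 17 alternative fits, with differences from -2.31 to -1.93. The fits that changed only the filter or the variance model could not alter a probe's difference, only whether it passed. It no longer passed the threshold with normexp background correction (-1.93), with the filter at 1 array or no filter (-2.13 in both), and without control 15, control 16 or knock-out 54, and over the 6 arrays left out in turn it ranged from -2.31 to -1.98. Within the slides it was -2.31 and -2.22, and -2.27 with slide as a block. The number of probes of the 10 genes past the threshold went from 1 to 2 with median scaling and to 0 with normexp correction, the filter at 1 array and no filter, and ranged from 0 to 2 with arrays left out. The number of all probes past it went from 33 to 0 with normexp correction, 3 with the filter at 1 array, 2 without a filter and 15 with slide as a block, and from 2 to 62 with arrays left out. The third Sox2ot probe (AK045614) passed only without control 62, as did the Dcun1d1, Acad9 and Zfp267 probes that differed by at least 1 and 1 Mrpl47 probe. Of 1493 other values compared, 1402 moved by less than the SD between replicates and 91 by more. The 1402 include differences of single probes under another filter or variance model, which could not move. No paired analysis was possible because the labels give the groups no shared replicate number. The cause of the lost calls was not tested; the wider filters tested more probes.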
